A study of Mus musculus with 4 samples.

Results

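Receptors for dopamine, serotonin, adrenaline and noradrenaline, histamine and acetylcholine that signal through G proteins are described here in tissue of the parasubthalamic nucleus (PSTh), a small glutamatergic cell group at the edge of the posterior lateral hypothalamus. The 34 genes were chosen by name: 5 dopamine, 12 serotonin, 8 adrenergic, 4 histamine and 5 muscarinic receptor genes, out of 25044 entries in the tables. All 34 were found by their Ensembl identifiers. The tissue came from naive C57BL/6 mice, an inbred strain, with no allele, agent or stress applied, and gave 4 libraries of 1 group, replicates 1 to 4. The labels give neither age nor sex and do not say whether animals were pooled or whether each library is a separate animal, so every p-value refers to the variation among these libraries, which may be technical. With a single group, the comparisons are between genes within libraries and between the libraries themselves.

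These receptors are proteins with a shared fold of membrane-spanning helices that pass a signal from an amine or acetylcholine to a heterotrimeric G protein. They fall into classes by the G protein they mainly engage: Gs raises cyclic AMP, Gi/o lowers it and opens potassium channels, and Gq releases calcium through phospholipase C. Some sit on the neurons that release the transmitter and act as autoreceptors, others on the cells that receive it. In the hypothalamus and midbrain they are the means by which dopamine, serotonin, noradrenaline, histamine and acetylcholine neurons set arousal, feeding and stress responses.

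Levels are FPKM, fragment counts corrected for transcript length and library size, so genes of different length can be set side by side. Totals lay between 428612 and 442836 FPKM per library, and mitochondrially encoded transcripts took 19.1% to 22.2% of them. At the depth that the spacing of low values implies, 1 fragment of Adra2b, for example, is worth about 0.0120 FPKM. The neuronal markers Snap25, Syt1, Rbfox3, Stmn2 and Slc17a6 summed to 1541 to 1768 FPKM. Marker genes also set libraries apart: serotonergic markers summed to 48.7 FPKM in replicate 2 and 2.27 to 2.62 elsewhere, thalamus markers to 427 in replicate 3 and 173 to 255 elsewhere, and hindbrain and spinal cord markers to 19.9 in replicate 1 and at most 0.361 elsewhere. Calb2 made up most of the thalamus sum outside replicate 3 and went the other way, at 137 FPKM in replicate 3 and 153 to 226 elsewhere. Medial hypothalamus markers summed to 183 FPKM in replicate 2, far above the other libraries, and choroid plexus markers to 52.3 in replicate 4 and 2.55 to 3.66 elsewhere. Nearly all of that 52.3 was Ttr alone, at 49.7 FPKM, while Folr1, Kl and Aqp1 lay at 1.73 FPKM or less in every library.

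Few of these receptors were abundant. Htr2c, a serotonin receptor of the Gq class, was highest at 29.0 ± 2.87 FPKM (SD, n = 4). Hrh3, the histamine autoreceptor, followed at 25.4 ± 3.82, and Drd2, the inhibitory dopamine receptor, at 19.6 ± 5.46 FPKM. These 3 were the only members with a mean of 10 FPKM or more. At 1 FPKM or more in every library stood 17 of the 34, against 54.6% of all 22036 entries with an Ensembl identifier. The median member lay at 1.93 FPKM and the median entry at 2.21. As a list the receptors therefore stood near the middle of all genes, and the contrast lies between a few high members and many low ones. In bulk tissue a low level can mean few cells with the transcript or little of it in each cell, and these cannot be told apart.

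**Figure D1:**
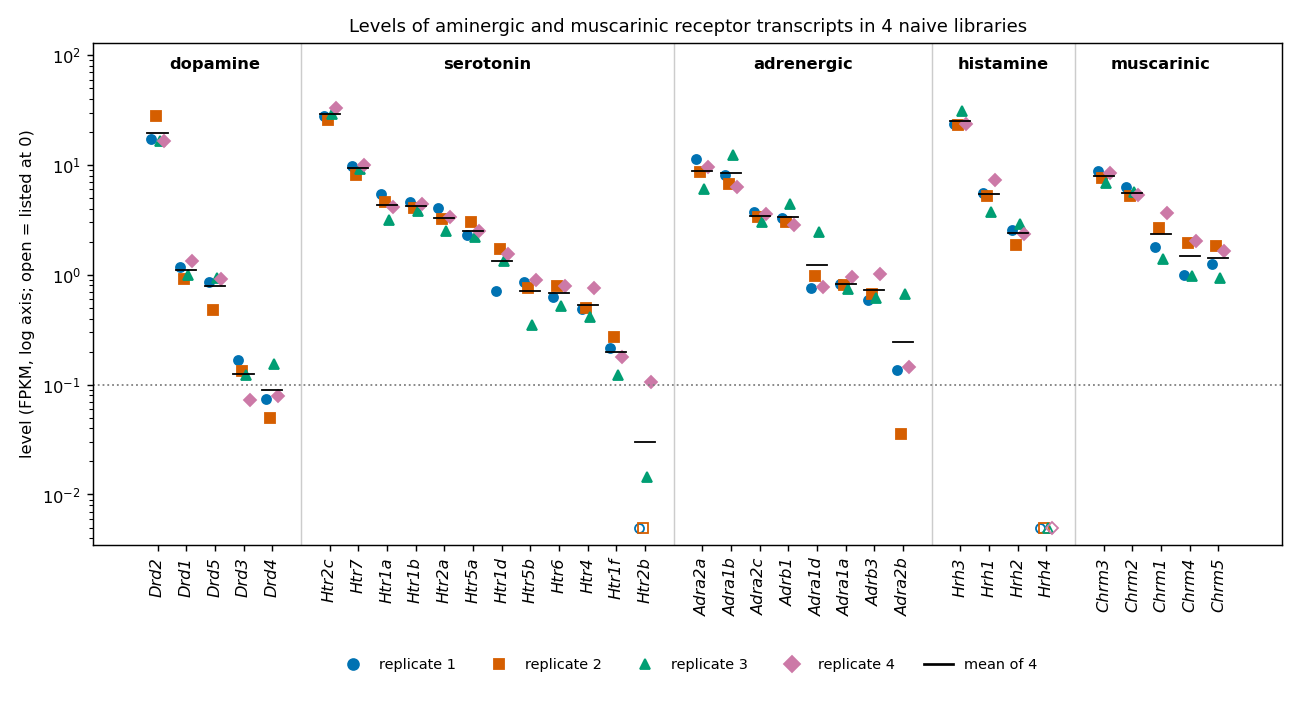
Level of each receptor gene (FPKM, logarithmic axis) in each of the 4 libraries, grouped by transmitter and ordered by mean; points are single libraries, black bars the mean of 4, open symbols values listed at 0, and the dotted line marks 0.1 FPKM. Htr2c, Hrh3 and Drd2 lead their transmitters, and Hrh4 is listed at 0 in every library.

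Genes were compared within libraries by limma on log2(FPKM + 0.1), where the added value shrinks differences between low genes, and a pair was called different at an adjusted p under 0.05. The filter of a mean of 0.1 FPKM was passed by 31 of the 34. Drd4, Htr2b and Hrh4 did not pass it. Among the 31, 102 pairs share a transmitter, and 88 of them differed. That share was near the background, since 86.1% of all genes differed from a receptor in the same fits. Of the 26 pairs that are neighbours in rank, 15 differed. The ranks come from the same values, so a difference between neighbours is a statement about its size against the spread and not an independent check of the order. Counts of members below the top one of a transmitter share this limit. The top member was picked for its highest mean, so no other could have a higher mean. The share of all genes below it was not restricted in this way, so such a count shows no excess.

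Dopamine receptors were dominated by Drd2, which encodes the receptor found on dopamine neurons themselves as well as on their targets. Drd2 lay at 17.4, 27.7, 16.5 and 16.6 FPKM in replicates 1 to 4. It made up 90.3% of the summed level of the 5 genes. The values in 3 libraries were close together and replicate 2 stood well above them. Drd1, the main Gs-coupled dopamine receptor of the striatum, lay at 1.17, 0.919, 0.987 and 1.33 FPKM. Drd5, its Gs-coupled relative, lay at 0.869, 0.478, 0.929 and 0.910, again with replicate 2 apart but on the low side. Drd3 stood at 0.124 ± 0.0395 FPKM, and Drd4, under the filter, at 0.0494 to 0.154. No value of Drd1 overlapped the range of Drd2.

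Drd2 was above Drd1 by 4.01 on the log2 scale (SE 0.27, adjusted p = 0.000144 by limma) in 4 of 4 libraries. All 3 other dopamine receptors tested were lower than Drd2, picked as the highest, where 70.1% of all genes were lower than it too. Drd1 exceeded Drd5 in 4 of 4 libraries by only 0.45 (SE 0.16, adjusted p = 0.0498). That narrow call was lost without any 1 of the 4 libraries, with adjusted p of 0.154, 0.120, 0.0674 and 0.114 without replicates 1 to 4. Drd5 exceeded Drd3 by 1.98 (SE 0.28, adjusted p = 0.00186). Drd2 (ENSMUSG00000032259) lies on GRCm38 chromosome 9 from 49340627 to 49408177, plus strand.

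Drd2 and the markers of midbrain dopamine neurons were high in the same library. In replicate 2, 9 of the 10 markers were at their highest, and the list summed to 1017 FPKM against 524 to 553 elsewhere; none was at 0. Th, the enzyme that limits dopamine synthesis, lay at 118, 223, 103 and 104 FPKM in replicates 1 to 4. Slc6a3, the dopamine transporter, lay at 92.5, 196, 90.3 and 88.9 FPKM. Drd2 was 0.72 above the mean of the other libraries in replicate 2 on the log2 scale, and the median marker was 1.04 above. Markers of striatal projection neurons did not follow this split: they summed to 99.8 FPKM in replicate 2 and 84.5 to 111 elsewhere. Most of that sum was Penk alone, at 66.1 FPKM in replicate 2 and 49.6 to 76.5 elsewhere. Of the 6 markers, 1 was highest in replicate 2. Adora2a, a gene of striatal neurons that hold Drd2, lay at 0.712 to 0.981 in the 4 libraries. The part of dopamine neurons in the Drd2 level was not tested.

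**Figure D2:**
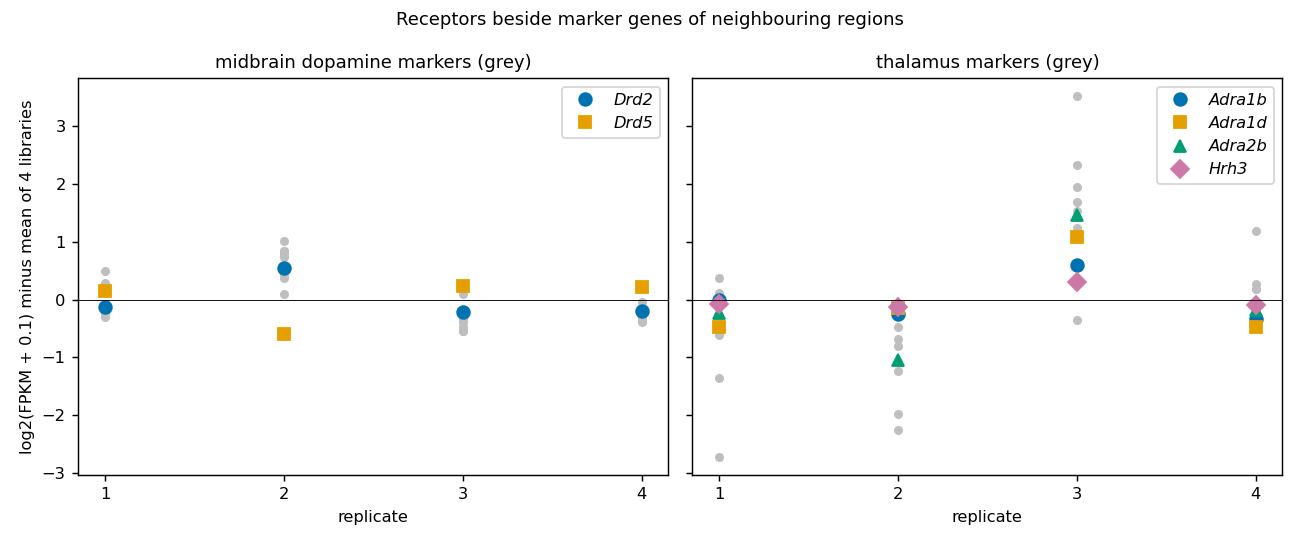
Left, Drd2 and Drd5 beside 10 markers of midbrain dopamine neurons (grey); right, Adra1b, Adra1d, Adra2b and Hrh3 beside 7 thalamus markers (grey). Each point is log2(FPKM + 0.1) of a gene in a library minus its mean over the 4 libraries. Drd2 and most dopamine markers sit highest in replicate 2. The 4 receptors on the right and 6 of the thalamus markers sit highest in replicate 3. These receptors are shown as genes highest in that library, so their match to it is not a test. Of the 31 receptors tested, 7 were highest in replicate 3, against 22.5% of all genes.

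Serotonin receptors, the most numerous with 12 of the 34 genes, held the largest summed level of any transmitter, 56.2 ± 4.14 FPKM (SD, n = 4). Htr2c, known for its part in feeding and anxiety and as a transcript edited after transcription, lay at 28.2, 25.8, 29.2 and 32.7 FPKM and made up 51.6% of that sum. Htr7, a Gs-coupled receptor tied to circadian and thermal control, lay at 9.72, 8.17, 9.22 and 10.1 FPKM. Htr1a, a Gi/o-coupled receptor that is also the somatic autoreceptor of serotonin neurons, lay at 5.50, 4.58, 3.14 and 4.17. The 3 ranges did not overlap. Htr2c exceeded Htr7 by 1.63 on the log2 scale (SE 0.08, adjusted p = 2.88e-05 by limma), and Htr7 exceeded Htr1a by 1.10 (SE 0.16, adjusted p = 0.00177), each in 4 of 4 libraries. All 10 other serotonin receptors tested were lower than Htr2c, picked as the highest, where 82.6% of all genes were lower too.

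Below these came a group of Gi/o and Gq receptors with small steps between them. Htr1b, the autoreceptor of serotonin axon terminals, stood at 4.22 ± 0.338 FPKM (SD, n = 4). Its difference from Htr1a, 0.02 (SE 0.17, adjusted p = 0.923), was far within the spread, and Htr1a was the higher in 2 of 4 libraries. Htr2a, a Gq receptor and the main target of classical hallucinogens, stood at 3.30 ± 0.659 and below Htr1b by 0.36 (SE 0.10, adjusted p = 0.0162). That call was lost without replicate 4 (adjusted p = 0.0634) and on values multiplied by transcript length (0.13, adjusted p = 0.252). That scaling undoes the length correction, so a difference between genes shifts with the ratio of their gene model lengths. Htr5a at 2.52 ± 0.377 could not be separated from Htr2a (difference 0.36, SE 0.17, adjusted p = 0.108), although Htr2a was higher in 4 of 4. Htr1d, a further presynaptic receptor, was lower than Htr5a by 0.93 (SE 0.19, adjusted p = 0.00708).

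Of the low serotonin receptors, Htr1d and Htr5b each had 1 library more than 2-fold from the mean of the others. Htr1d lay at 0.714, 1.71, 1.35 and 1.55 FPKM, with replicate 1 alone below 1. Htr5b, which in humans has lost its coding function, lay at 0.866, 0.766, 0.352 and 0.890, with replicate 3 alone low. Htr1d and Htr5b did not differ by the test with 4 libraries (0.81, SE 0.38, adjusted p = 0.102) and did without replicate 1 (1.16, adjusted p = 0.0114), on values multiplied by transcript length (1.32, adjusted p = 0.0175) and with limma's prior not limited (adjusted p = 0.0153). Htr6, a Gs receptor, at 0.686 ± 0.132 FPKM and Htr4, also Gs-coupled, at 0.537 ± 0.151 lay beside Htr5b, and none of the pairs among these 3 passed. Htr1f stood at 0.197 ± 0.0637, below Htr4 by 1.10 (SE 0.22, adjusted p = 0.00743). Htr2b, under the filter, was listed at 0 in replicates 1 and 2, at 0.0143 in replicate 3 and at 0.106 in replicate 4.

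The genes that make and take up serotonin were high in replicate 2 alone. Tph2, the neuronal enzyme of serotonin synthesis, lay at 0.198, 26.7, 0.275 and 0.319 FPKM, and Slc6a4, the serotonin transporter, at 16.7 in replicate 2 and at 0 in the others. All 5 serotonergic markers were highest there, although Gata3, which other neurons also express, was at 1.22 to 1.77 FPKM in the other libraries against 2.93. The autoreceptor genes did not follow: Htr1a and Htr1b were highest in replicate 1, at 5.50 and 4.56 FPKM against 4.58 and 4.07 in replicate 2. Htr1d was highest in replicate 2, at 1.71 against 1.55 in replicate 4. The part of serotonin neurons in these levels was not tested.

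Adrenergic receptors had no single leader. Adra2a, the main Gi/o-coupled receptor for noradrenaline in the brain, lay at 11.3, 8.65, 6.11 and 9.50 FPKM. Adra1b, a Gq receptor, lay at 8.06, 6.74, 12.3 and 6.36. Adra2a was above Adra1b in replicates 1, 2 and 4 and below it in replicate 3, where Adra2a had its lowest value and Adra1b its highest. The difference of 0.10 on the log2 scale (SE 0.34, adjusted p = 0.793 by limma) was within the spread; without replicate 3 it was 0.47 and passed (adjusted p = 0.0411), and it was -0.03 without replicate 1 and -0.05 without replicate 4. Adra2c, at 3.74, 3.35, 3.02 and 3.60 FPKM, and Adrb1, a Gs-coupled beta receptor of heart and brain, at 3.39 ± 0.732, were level (0.03, SE 0.17, adjusted p = 0.867). Of the 7 others, 6 were lower than Adra2a, picked as the highest by mean, where 52.4% of all genes were lower too. Adra1b exceeded Adra2c by 1.22 (SE 0.28, adjusted p = 0.0132), a call lost without replicate 1 (adjusted p = 0.0549).

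The remaining adrenergic genes were low. Adra1d, a Gq receptor, lay at 0.767, 0.983, 2.45 and 0.769 FPKM, and replicate 3 stood apart from 3 values under 1. Adra2b lay at 0.137, 0.0355, 0.670 and 0.146, with the same library apart. Adra1a, another Gq receptor, lay between 0.737 and 0.952 FPKM, and Adrb3, a Gs receptor best known from fat tissue, stood at 0.724 ± 0.202. Adra1d was higher than Adra1a in 2 of 4 libraries; their difference was 0.37 (SE 0.43, adjusted p = 0.455) and was -0.04 without replicate 3. Adrb3 was higher than Adra2b by 1.53 (SE 0.49, adjusted p = 0.0348) in 3 of 4 libraries; that call was lost without replicate 1, 2 or 4, with adjusted p from 0.0947 to 0.116.

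Replicate 3, where Adra1b, Adra1d and Adra2b were highest, also held the highest values of most thalamus markers. Prkcd, a kinase gene of thalamic relay neurons, lay at 5.77, 3.72, 172 and 13.4 FPKM, and Tcf7l2, a transcription factor of the thalamus, at 9.79, 6.14, 42.0 and 17.6. Of the 7 thalamus markers, 6 were highest in replicate 3 and none was at 0 in any library. Calb2, the most abundant of them, was lowest there, at 137 FPKM. Adra1b, Adra1d, Adra2b and Adrb1 were also highest there, above the mean of the other libraries by 0.80, 1.45, 1.95 and 0.54 on the log2 scale. They are named for being highest in that library, so the match to it is not a test. The other 4 adrenergic genes were not: Adra2a was at -0.67, Adra2c at -0.23, Adra1a at -0.19 and Adrb3 at -0.23 in replicate 3. Of all 31 receptors tested, 7 were highest in replicate 3, near the 22.5% of all genes that were. Drd5, Hrh2 and Hrh3 were among the 7. The part of thalamic tissue in these values was not tested. The makers of noradrenaline were nearly absent, with Dbh, the enzyme that forms it, at 0.0386 FPKM or less and Slc6a2, its transporter, at 0.00777 or less.

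Histamine receptors formed 3 clear steps. Hrh3, a Gi/o receptor on histamine neurons and on many other axon terminals, lay at 23.8, 22.9, 31.1 and 23.7 FPKM, with 3 libraries within a narrow range and replicate 3 above them. Hrh1, the Gq receptor through which histamine promotes waking, lay at 5.54, 5.26, 3.72 and 7.26. Hrh2, a Gs receptor, lay at 2.56, 1.86, 2.92 and 2.34. Hrh4, known from blood cells, was listed at 0 in all 4 libraries. The ranges of the 3 detected genes did not overlap.

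Hrh3 exceeded Hrh1 by 2.23 on the log2 scale (SE 0.25, adjusted p = 0.000616 by limma) and Hrh1 exceeded Hrh2 by 1.12 (SE 0.28, adjusted p = 0.0166), each in 4 of 4 libraries. The step from Hrh1 to Hrh2 was no longer called without replicate 1 (adjusted p = 0.0651), 2 (0.0749) or 4 (0.0539). Both genes tested were lower than Hrh3, picked as the highest, as were 79% of all genes. Hdc, which makes histamine, lay at 19.5, 18.2, 10.1 and 14.3 FPKM, so its order over the libraries differed from that of Hrh3. Hrh3 and Hrh1 were at opposite ends in replicate 3, where Hrh3 was highest and Hrh1 lowest. Hrh3 (ENSMUSG00000039059) lies on GRCm38 chromosome 2 from 180099465 to 180104488, minus strand, and the annotated antisense gene Gm17180 overlaps it. Whether the authors counted by strand is not given in the sources used here, so reads of that partner could be included.

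Muscarinic receptors were led by Chrm3 and Chrm2. Chrm3, a Gq receptor, lay at 8.82, 7.58, 6.81 and 8.43 FPKM, and Chrm2, the Gi/o receptor that acts as autoreceptor on cholinergic neurons, at 6.27, 5.20, 5.64 and 5.34. Their ranges did not overlap, and Chrm3 was higher by 0.48 on the log2 scale (SE 0.10, adjusted p = 0.00660 by limma) in 4 of 4 libraries. On values multiplied by transcript length, 4336 bases for Chrm3 and 5676 for Chrm2, this fell to 0.10 and was not called (adjusted p = 0.365). Chrm1, the Gq receptor typical of cortex and hippocampus, lay at 1.79, 2.65, 1.38 and 3.64 FPKM and was below Chrm2 by 1.30 (SE 0.28, adjusted p = 0.00786). Chrm4, a Gi/o receptor abundant in the striatum, stood at 1.49 ± 0.584 and Chrm5, a Gq receptor of midbrain dopamine neurons, at 1.42 ± 0.398. All 4 others were lower than Chrm3, picked as the highest, where 54.8% of all genes were lower too.

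Chrm1, Chrm4 and Chrm5 did not pass the test against each other. The difference of Chrm1 from Chrm4 was 0.62 (SE 0.22, adjusted p = 0.0539 by limma), and that of Chrm4 from Chrm5 was 0.04 (SE 0.22, adjusted p = 0.881). Chrm1 and Chrm4 were called different with a filter of 1 FPKM (adjusted p = 0.0490). On values multiplied by transcript length the difference was 2.62 (adjusted p = 0.000598). That scaling adds the ratio of gene model lengths, 6271 bases for Chrm1 and 1440 for Chrm4, so the larger difference is not one of level alone. All 3 were higher in replicates 2 and 4 than in replicates 1 and 3. For Chrm4 the values were 0.995, 1.94, 0.986 and 2.05 FPKM, and for Chrm5 they were 1.25, 1.82, 0.938 and 1.65. Cholinergic neuron genes did not share this split: Slc18a3, the vesicular acetylcholine transporter, lay at 5.96, 2.91, 0.370 and 0.549 FPKM. The gene models of Chrm4 and Chrm5 in GENCODE M21 hold little beyond the coding region, with 1440 and 1599 bases, so their length correction rests on that region if the authors used similar models.

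Summed by G protein class, the 16 Gi/o receptors took 49.8% ± 3.21 (SD, n = 4) of the total level of the 34 genes. The 10 Gq receptors took 38.1% ± 2.28 and the 8 Gs receptors 12.1% ± 1.06. The order of these shares was the same in 4 of 4 libraries. A share also depends on how many genes are listed, so it does not rank the classes per gene. The median member lay at 2.01 FPKM in Gi/o, 2.83 in Gq and 0.949 in Gs. Each class leaned on a few genes: Hrh3 made up 32.5% of the Gi/o sum, Htr2c 48.4% of the Gq sum and Htr7 49.1% of the Gs sum. By transmitter, serotonin receptors, 12 of the 34 genes, took 35.8% ± 2.16 and histamine receptors, 4 genes, 21.2% ± 2.16. Adrenergic receptors took 17.3% ± 1.96, dopamine receptors 13.8% ± 3.35 and muscarinic receptors 10.1% to 13.2% in single libraries. Dopamine and muscarinic receptors changed order between libraries, and in replicate 2 the dopamine sum was 29.3 FPKM against 18.7 to 19.7 elsewhere, nearly all of it Drd2. The sum over the 34 genes itself was steady, at 157, 156, 155 and 160 FPKM in replicates 1 to 4. No p-value was computed for these sums, since the members were picked by name with earlier results known.

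**Figure D3:**
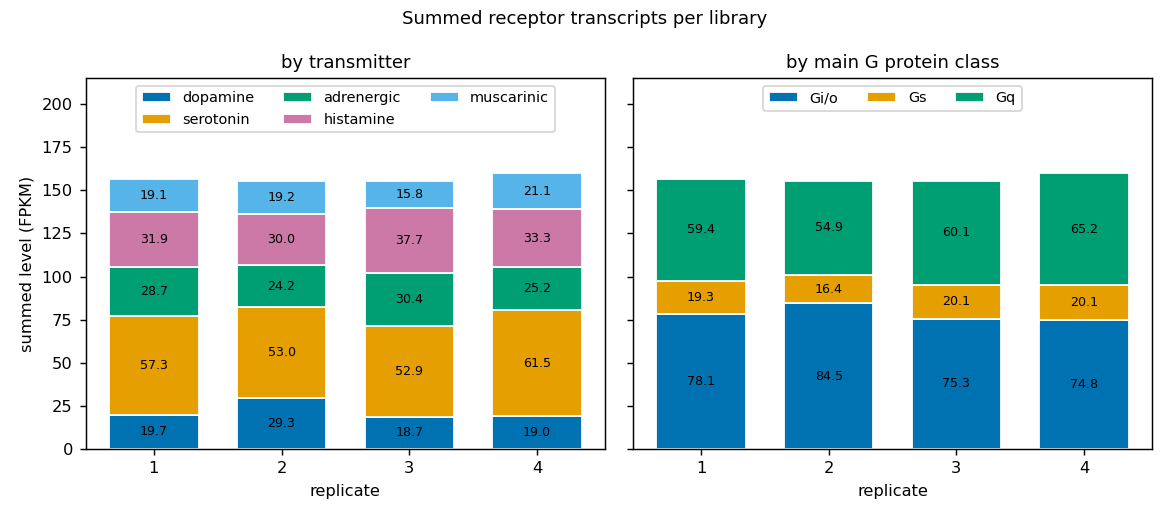
Summed level (FPKM) of the 34 receptor genes in each library, stacked by transmitter (left) and by the G protein class each receptor mainly engages (right); numbers in the bars are the sums. Totals lie between 155 and 160 FPKM, and the dopamine part is larger in replicate 2, at 29.3 FPKM.

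The receptors were also set against Adcyap1r1, which encodes the PACAP receptor PAC1R that the series is named for and lay at 41.1, 42.4, 35.7 and 41.0 FPKM. All 31 receptors tested were lower, against 88.1% of all genes, and 0 were higher, so the count says little about receptors in particular. The sizes differ widely. Htr2c was below Adcyap1r1 by 1.38-fold (log2 difference -0.47, SE 0.10, adjusted p = 0.00623 by limma), Hrh3 by 1.58-fold (-0.66, SE 0.14, adjusted p = 0.00617) and Drd2 by 2.09-fold (-1.06, SE 0.14, adjusted p = 0.000877). Htr7 was 4.27-fold lower and Drd3, at the far end, 181-fold lower. Each of these was lower in 4 of 4 libraries.

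Genes that make, carry, break down or relay these signals were placed on the same scale. Of 44 such genes, 40 passed the filter, and 11 were higher than Adcyap1r1, 26 lower and 3 neither. Of all genes, 8.71% were higher and 88.1% lower, so a gene being lower says little about its role. On values multiplied by transcript length, which undoes the length correction, 5 were higher. Among genes of synthesis and transport, Th, Slc6a3 and Ddc, the decarboxylase of dopamine and serotonin synthesis, were higher, by 1.70, 1.46 and 1.33 on the log2 scale (adjusted p = 0.000567, 0.00147 and 0.00156 by limma). All 3 acetylcholine genes were lower: Chat, the synthetic enzyme, stood at 0.812 ± 0.461 FPKM (SD, n = 4), Slc18a3 at 2.45 ± 2.61 and Slc5a7, the choline transporter, at 2.17 ± 1.65. Of the breakdown genes Aldh1a1, an aldehyde dehydrogenase of dopamine neurons, stood at 194 ± 45.7 FPKM and Ache, which splits acetylcholine, at 104 ± 12.5.

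The 3 most abundant of the 10 G protein alpha subunit genes lay above every receptor, which was not so for all of the 10. Gnas, the Gs alpha subunit, stood at 967 ± 47.1 FPKM, Gnao1, the Go subunit, at 135 ± 5.13 and Gnai2, a Gi subunit, at 119 ± 10.8. Among 13 regulators, Rgs4, which shortens Gi/o and Gq signals, was highest at 69.8 ± 24.3, followed by the receptor kinase gene Grk2 at 54.9 ± 2.90 and by Rgs7 at 29.9 ± 1.55. Rgs4 was highest in replicate 3, at 105 FPKM against 52.6 to 67.8 elsewhere, as were 6 of the 7 thalamus markers; Calb2, the most abundant of these, was lowest there, at 137 FPKM.

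Spread between libraries was examined gene by gene. The median SD of the 31 receptors on the log2 scale was 0.32, against 0.17 for all genes, but low genes vary more and the receptors are of middling to low level. Set against genes of like level, 20 of the 31 had a variance above the trend, against 47.3% of all genes. The limma variance test called 0 of 31 receptors and 0% of all 17630 genes; at an unadjusted p under 0.05 it found 6 of the 31 receptors, against 5.85% of all genes. These 6, named after their values were seen, were Drd2 with a variance 10.5 times the trend, Adra1b with 10.1 times, Chrm1 with 7.91, Adra2a with 7.88, Adra1d with 7.03 and Hrh1 with 6.51. The lowest adjusted p among them, that of Drd2, was 0.668 by limma. A count of 0 from 4 libraries does not show that receptors varied alike. The steadiest by coefficient of variation were Htr1b at 8.01%, Chrm2 at 8.50% and Htr7 at 8.91%.

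**Figure D4:**
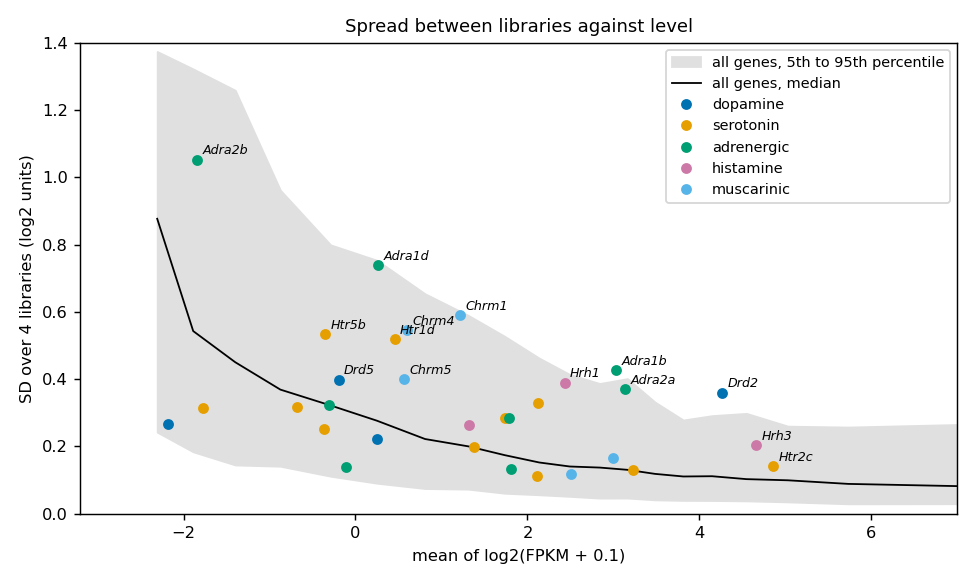
SD over the 4 libraries (log2 units) against mean log2(FPKM + 0.1) for the 31 receptors tested, coloured by transmitter; the grey band spans the 5th to 95th percentile of all genes in 20 bins of level and the line is their median. Drd2 lies above the band at its level, with an SD of 0.36.

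Each library was then set against the mean of the others. Past 2-fold were 4 of the 31 receptors in any library, against 11.8% of all genes, so the share was near that of genes at large. In replicate 3, Adra1d and Adra2b were higher, against 2.72% of all genes, and Htr5b was lower by 1.05 on the log2 scale, against 3.48%. Htr1d was lower in replicate 1 by 1.00, just past the limit, where 2.88% of genes were lower and, with no receptor among them, 2.34% higher. Adra2b was lower in replicate 2 by 1.39, where 2.27% of genes were lower and 2.44% higher. In replicate 4 no receptor passed, against 1.97% of genes higher and 2.53% lower. Adra2b in replicate 2, at 0.0355 FPKM, would rest on about 3 fragments at the implied depth, which is approximate.

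Short of 2-fold, many receptors shared a direction in replicate 3. Of the 31, 17 had their lowest value there, against 35.9% of all genes, and the count was 15 with libraries scaled by median ratio, against 28.6%. Among the 17 were 8 of the 11 serotonin receptors tested and Chrm1, Chrm3, Chrm4 and Chrm5. Replicate 4 held the highest value of 11 receptors, against 21.5% of all genes. Markers of the lateral hypothalamus summed to 538, 454, 178 and 769 FPKM in replicates 1 to 4, so their sum too was lowest in replicate 3 and highest in replicate 4, although single genes differed: Lhx9 was highest in replicate 3 and Cartpt lowest in replicate 1. The summed markers of the medial hypothalamus and of cholinergic and histaminergic neurons were also lowest in replicate 3. Oligodendrocyte markers summed to 7793 FPKM there and 5355 to 7260 elsewhere, with 4 of 5 at their highest. The part of these cells and regions in the receptor levels was not tested.

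**Figure D5:**
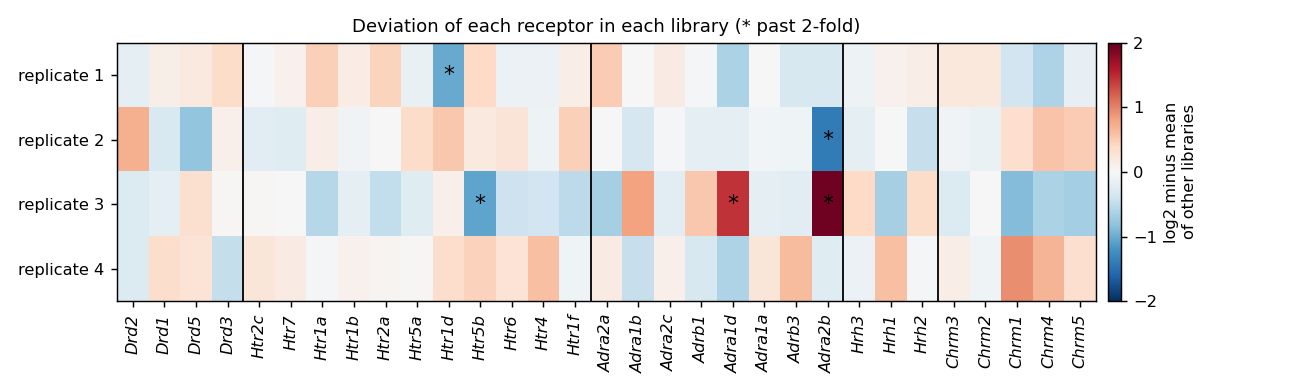
Each of the 31 receptors tested in each library as log2(FPKM + 0.1) minus the mean of the other libraries (red higher, blue lower), ordered by transmitter and mean level; asterisks mark deviations past 2-fold. In replicate 3, Adra1b, Adra1d, Adra2b and Adrb1 are high while most serotonin receptors are low.

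A feature of structure that the choice by name did not use was more frequent among these genes than among all coding genes. The coding region lies in a single exon in 16 of the 34, 47.1%, against 16.2% of 21914 protein-coding genes in the tables, by the longest coding transcript in GENCODE M21. All 5 muscarinic genes are of this kind, as are 4 of the 8 adrenergic, 4 of the 12 serotonin, 2 of the 5 dopamine and 1 of the 4 histamine genes. The median level was 2.88 FPKM in the 16 and 1.04 in the other 18, yet the 3 highest receptors, Htr2c, Hrh3 and Drd2, have 4, 5 and 7 coding exons. The 34 genes lie on 15 chromosomes. Htr2c (ENSMUSG00000041380), the highest of all, lies on chromosome X from 146962513 to 147197277, plus strand.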

How the data were processed

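RNA was taken with TRIzol and made into mRNA libraries, per the labels' protocols; the build is GRCm38, per the submitters' processing notes. For the aligner, quantifier, annotation and strand the entry is "not given in the sources used here". Deposited by the authors is 1 value per gene and library, read as FPKM from the values since no label names the unit; totals differ and values are not whole. Depth is therefore only implied, counting intervals were not computed, and the header of the third library reads C in place of its number. Symbols matched 22022 of 22036 Ensembl identifiers (GENCODE M21), and 3008 entries have none. The members, gene lists and tests were chosen with earlier results of these data known. Genes named are all 34 members, with values per library for the 3 most abundant of each transmitter and for those past 2-fold or far from the rest, and the 3 most abundant pathway genes of each role, of which 1 is not reported here.

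Entries averaging at least 0.1 FPKM (17630) entered the tests, and log2(FPKM + 0.1) was used. Each receptor served as reference in a limma 3.58.1 fit (R 4.3.3) of the within-library differences to every other gene, intercept only, two-sided, Benjamini-Hochberg adjusted over 17629 genes, and limma's prior was held to 1.63 degrees of freedom, as found for the levels themselves. Variance was tested against limma's trended, robust prior. Both were also run on simulated data, whose outcome is not given here. Those data used the same variance prior for genes of every level, whereas low genes vary more here. The run therefore does not show how well the variance test works on these libraries. Alternatives were other added values, filters, length and library scalings, the prior without limit, and each library left out. Python 3.11.15, pandas 2.3.3 and matplotlib 3.10.9 were also used.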

Additional observations from a re-analysis of the deposited data

Results flagged for a closer look

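By Dixon's test, 1 library was far off the rest in 6 of 42 values tested (33 receptors and 9 sums), 14.3%, against about 5% by chance. Among genes over the filter it was so in 4 of 31 receptors and in 7.32% of all genes. The values are not independent of each other, since the sums hold the receptors. Drd2 was at 27.7 FPKM in replicate 2 and 16.5 to 17.4 elsewhere, and the dopamine receptor sum, which is mostly Drd2, was at 29.3 FPKM there and 18.7 to 19.7 elsewhere. Drd5 was at 0.478 FPKM in replicate 2 and 0.869 to 0.929 elsewhere. Adra1d was at 2.45 FPKM in replicate 3 and 0.767 to 0.983 elsewhere. Hrh3 was at 31.1 FPKM in replicate 3 and 22.9 to 23.8 elsewhere. Htr2b was at 0.106 FPKM in replicate 4 and 0 to 0.0143 elsewhere, with the coding gene Psmd1 overlapping it on the other strand.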

How the results depend on the processing

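No paired analysis was possible because all libraries form 1 group. The difference between the first and second receptor of a transmitter kept its sign under every alternative run, except for Adra2a and Adra1b without replicate 1 or 4. The count of differing pairs, 88 of 102, was 80 to 86 with a library left out and 40 of 45 with a filter of 1 FPKM, which tests fewer genes. Pathway genes above Adcyap1r1 fell from 11 to 5 on values multiplied by transcript length. That scaling undoes the length correction, so each difference between genes shifts with the ratio of their gene model lengths. Receptors past 2-fold in any library were 4, and 0 with 1 added before the logarithm, which shrinks differences of low genes; with a library left out they were 1 (without replicate 3) to 4. Of 302 values of neighbouring pairs under the alternatives, 258 kept direction and side of the threshold, 19 were no longer called, 8 became called and 17 changed sign. On values multiplied by transcript length the sign changes were Htr1a minus Htr1b at -0.056, Htr5b minus Htr6 at -0.22, Htr6 minus Htr4 at -0.55 (adjusted p = 0.0254 by limma), Adra1d minus Adra1a at -0.69 and Chrm4 minus Chrm5 at -0.10. With 0.01 added, Htr5b minus Htr6 was -0.000599. With a library left out, Htr1a minus Htr1b ranged from -0.0637 to 0.116, Htr5b minus Htr6 from -0.12 to 0.17, Adra1d minus Adra1a from -0.0361 to 0.59, Adra2a minus Adra1b from -0.0543 to 0.47, Adra2c minus Adrb1 from -0.0715 to 0.22 and Chrm4 minus Chrm5 from -0.0506 to 0.15. None of these pairs had passed in the 4 libraries. Depth limits Drd3, Drd4, Htr2b and Adra2b, where 1 fragment is worth about 0.0120 to 0.0282 FPKM at the implied depth. That depth is approximate: Htr2b in replicate 3, at 0.0143 FPKM, lies below the 0.0239 FPKM it gives for 1 fragment.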
